A study of Mus musculus with 12 samples.

Results

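The accessible chromatin of 31 genes of red cell formation and heme synthesis was examined in hematopoietic stem cells (HSCs) of mouse bone marrow. Open chromatin had been mapped by ATAC-seq, in which a transposase cuts accessible DNA, and each of 12 libraries was given as a list of peak summits. The members were the erythroid transcription factors Gata1 and Klf1 with the erythropoietin receptor gene Epor, 4 adult globin genes, 11 genes of the red cell membrane, its blood groups and its skeleton, the 8 genes Alas1, Alas2, Alad, Uros, Urod, Cpox, Ppox and Fech of heme synthesis, the transferrin receptor gene Tfrc, and Trim10, Car1, Car2 and Xpo7. A region belonged to a gene when its highest summit lay in the gene body or within 10 kb on either side. Of 71006 regions in the catalogue merged over the 12 lists, 114 met this rule (mm10). One of them was shared by Hba-a1 and Hba-a2.

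The study asked how age and loss of Mlkl, which encodes the pseudokinase that carries out necroptotic cell death, relate to the chromatin of HSCs. The 4 groups of 3 libraries were Young WT and Young Mlkl-/- at 3 months of age, and Aged WT and Aged Mlkl-/- at 18 months. All mice were on the C57BL/6 background, the labels name no treatment, and Mlkl-/- is a germline loss that affects every cell of the animal and not HSCs alone. Each library was a pool of sorted HSCs (lineage-negative, c-Kit+, Sca-1+, Flk2-, CD48-, CD150+) from several mice, with more mice in the young pools, and all libraries were prepared on the same day.

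In the bone marrow, HSCs give rise to erythroid progenitors that switch on globin and heme synthesis together. GATA1 and KLF1 bind promoters and distal enhancers of globin, membrane and heme genes, GATA1 at the letters AGATAA or TGATAA and KLF1 at CACCC-type sequences, while the related factor GATA2 recognises the same GATA letters in stem and progenitor cells. Heme is made by enzymes that most cells need, and only the erythroid form of the first enzyme, ALAS2, is restricted to red cell precursors. An open promoter is common to genes used in most tissues and does not show that the gene is transcribed.

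For each library the regions were ordered by the score of their highest summit. A percentile below gives the share of the 71006 catalogue regions ranked lower in that library, after every list had been reduced to its 35714 summits of highest score. A region without a summit in a list is given as not called, and the lowest percentile of a called region was 56.5. Differences between groups are differences in mean normal score, the percentile expressed on the scale of a standard normal distribution, so they describe relative rank and not an amount of open chromatin. Positive values mean higher in aged than in young, or higher in Mlkl-/- than in WT. In the comparisons an uncalled region held the tied lowest rank of its library, a normal score between −0.575 and −0.525. For regions with missing calls a difference therefore includes the step from no call to a called rank. Its size is not comparable with that of regions called in every list. The libraries held between 35714 and 61495 summits with a score of at least 3. Aged lists were mostly longer, depth was unknown, and 3 libraries per group limited the precision.

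The gene Mlkl was checked in every list. Its promoter region (chr8:111337167-111338851) was called in 5 of 6 young lists (3 of them Mlkl-/-) and 3 of 6 aged lists (2 of them Mlkl-/-), and in all 12 lists when their lengths were left unequal. An open promoter can remain at a disrupted gene, so these calls do not test the genotype labels. Of the marker genes of HSCs, 2 of 10 had a promoter region in all 12 lists and 4 of 10 in at least 3 lists. For B and T cells the promoter count was 0 of 6 in at least 3 lists, for granulocytes and monocytes 0 of 6, for megakaryocytes 4 of 5, and for erythroblast markers that are not members 3 of 4. Summits at genes of the Y chromosome occurred in 3 of 6 young and 0 of 6 aged libraries. In such pools fewer cells of a type and a less open region in each cell cannot be told apart.

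A set of 4 distal regions that were called in all 12 lists and hold a GATA motif is shown for 75 bases on each side of their highest summit, as examples from 4 genes among the 7 such regions. The others are both regular introns of Gypc and a region 1.61 kb upstream of Epb41. Letters are those of RefSeq's GRCm38.p6 (mm10), 5′ to 3′ on the strand of the named gene, and capitals mark the GATA motif, which here reads TTATCT or TTATCA because it lies on the opposite strand. The positions are chr17:40806692-40806842 on the plus strand for Rhag, chr7:103809041-103809191 on the minus strand for Hbb-bt, chr4:132040373-132040523 on the minus strand for Epb41 and chr16:58686303-58686453 on the plus strand for Cpox.
Rhag, 4.36 kb upstream: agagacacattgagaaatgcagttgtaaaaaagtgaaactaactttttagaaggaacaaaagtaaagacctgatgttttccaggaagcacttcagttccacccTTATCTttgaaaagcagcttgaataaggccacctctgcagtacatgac
Hbb-bt, 4.88 kb downstream of the start: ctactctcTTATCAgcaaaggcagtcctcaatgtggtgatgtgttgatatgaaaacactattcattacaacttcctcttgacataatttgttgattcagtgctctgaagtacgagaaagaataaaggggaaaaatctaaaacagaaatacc
Epb41, intron: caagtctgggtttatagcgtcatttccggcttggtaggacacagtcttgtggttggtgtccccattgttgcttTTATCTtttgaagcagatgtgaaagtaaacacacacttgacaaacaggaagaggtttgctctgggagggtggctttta
Cpox, intron: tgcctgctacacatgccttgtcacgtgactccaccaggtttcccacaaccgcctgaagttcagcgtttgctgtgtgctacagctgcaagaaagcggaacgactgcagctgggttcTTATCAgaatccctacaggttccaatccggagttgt

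A set of 4 promoters, each given as the 150 bases before the start, shows the contrast between genes whose promoter was called in all 12 lists (Ppox, Tfrc) and genes without any promoter region (Alas2, Klf1). For Ppox (chr1:171281187-171281336, minus strand) and Tfrc (chr16:32608770-32608919, plus strand) capitals mark CpG dinucleotides, of which there are 7 and 18. For Alas2 (chrX:150547225-150547374, plus strand) and Klf1 (chr8:84901778-84901927, plus strand) capitals mark the GATA motif, which occurs 1 time in each.
Ppox promoter: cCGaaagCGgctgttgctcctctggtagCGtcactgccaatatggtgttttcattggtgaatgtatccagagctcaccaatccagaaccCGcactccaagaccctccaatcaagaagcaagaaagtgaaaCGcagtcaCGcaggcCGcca
Tfrc promoter: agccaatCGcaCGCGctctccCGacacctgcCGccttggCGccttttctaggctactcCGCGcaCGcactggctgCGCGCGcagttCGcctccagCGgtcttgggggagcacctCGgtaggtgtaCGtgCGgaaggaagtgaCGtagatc
Alas2 promoter: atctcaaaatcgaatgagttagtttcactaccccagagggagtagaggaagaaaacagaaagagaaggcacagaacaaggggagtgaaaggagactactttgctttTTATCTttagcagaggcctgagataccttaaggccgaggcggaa
Klf1 promoter: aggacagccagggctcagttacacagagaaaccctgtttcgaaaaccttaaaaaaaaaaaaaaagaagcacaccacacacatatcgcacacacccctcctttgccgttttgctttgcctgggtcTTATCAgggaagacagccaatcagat

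The promoters of the 31 genes ranged from those called in every HSC list, 12 genes, to those called in none, also 12, with 7 genes between. A promoter region, with its highest summit within 1 kb of an annotated start, was called in all 12 lists for 12 of 31 members (38.7%), against 9242 of 21911 protein-coding genes (42.2%). No list called one for 12 of 31 members (38.7%), against 8391 of 21911 (38.3%). Both shares lay near those of all protein-coding genes. Of the 8 heme enzymes 6 had a promoter called in every list, while Alad reached 11 lists and Alas2, the erythroid enzyme, reached none. Of the 11 membrane genes 2 had such a promoter, Epb41 and Aqp1, and of the 4 globin genes none had.

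In order of median percentile over the 12 libraries, Ppox, which makes protoporphyrin, stood highest with 97.7 (lowest 94.7, highest 99.1). Cpox, the enzyme before it, followed at 97.0 (83.3 to 98.9), then Car2, a carbonic anhydrase, at 94.9 (90.6 to 97.5). Fech, which inserts iron into protoporphyrin, had a median of 94.6 (89.4 to 98.3), and Uros 91.6 (80.1 to 97.7). These promoters stood highest among the members, and each range overlapped the next. Tfrc, which takes up iron bound to transferrin, was at 90.9 (81.1 to 94.0), Epb41, a linker of the spectrin skeleton, at 88.3 (80.9 to 94.3), and Epor at 87.7 (79.5 to 96.3). The exportin gene Xpo7 was at 83.4 (66.5 to 91.3), Urod at 82.8 (61.2 to 89.3) and the water channel gene Aqp1 at 82.3 (79.6 to 89.8). Alas1, the enzyme form found in most tissues, was lowest among the 12 with 71.0 (68.5 to 87.5). Neighbours in this order did not differ beyond their spread.

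**Figure D1:**
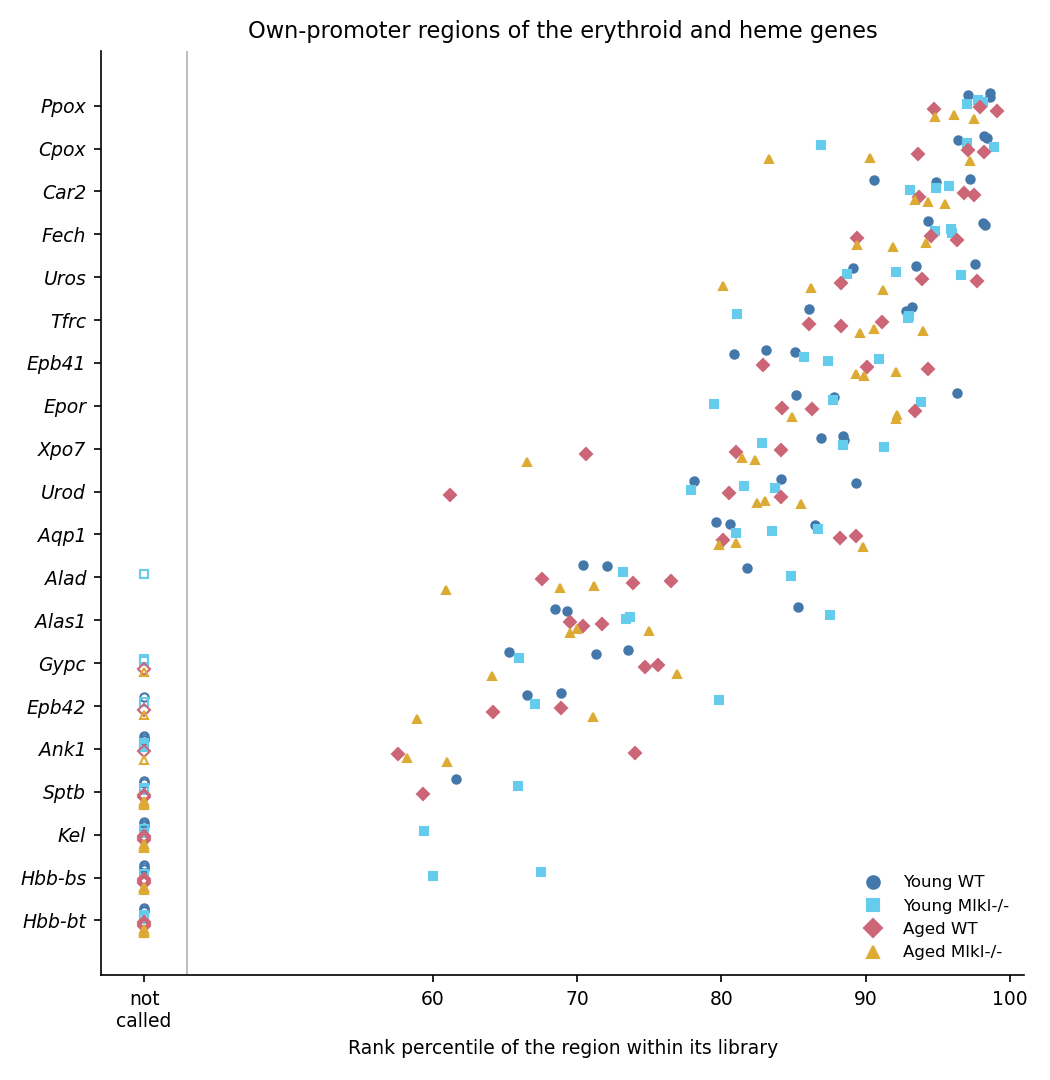
Rank percentile of the best-called promoter region of each member (x axis, percent of catalogue regions ranked lower in the library) for 20 genes with such a region (y axis, ordered by level). Each point is a library and open points at the left are libraries without a call. The heme enzymes Ppox, Cpox and Fech lie near the upper end, whereas Hbb-bt has no call in lists of equal length.

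Besides Alad, the genes whose best promoter region was called in 1 to 11 lists were membrane and globin genes. Gypc, which encodes glycophorin C, and Epb42, a skeleton protein, were called in 8 lists each, Ank1 (ankyrin) in 4, Sptb (β-spectrin) in 3, Hbb-bs in 2 and Kel, the Kell blood group protease, in 1. Hbb-bt was called in 0 lists of equal length and in 3 of unequal length. No promoter region existed for Gata1, Klf1, Hba-a1, Hba-a2, the anion exchanger gene Slc4a1, the Rh complex genes Rhag and Rhd, the adducin gene Add2, Alas2, Trim10 or Car1. Alas2 and Car1 had no region of any kind, and the nearest called regions lay 35.9 kb and 54.8 kb away. The only region of Slc4a1, 10.7 kb upstream of its start, was called in 0 lists at equal and 2 at unequal length. A promoter that was not called had no summit past the score minimum at the depth of these libraries, which does not show that it was closed.

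The base composition of the promoters, which the choice of members did not use, differed between the groups of genes. In the 300 bases from 250 before to 50 after the start, the ratio of observed to expected CpG had a median of 0.72 for the 12 members called in every list and 0.16 for the 12 members called in none. A ratio of at least 0.6 was reached by 8 of 12 (66.7%) and 0 of 12 genes. For all protein-coding genes the medians were 0.79 over 9242 genes called in every list and 0.19 over 8393 called in none, 2 genes more than above because starts of non-coding records with the same symbol were not used here. Epor and Alas1, both at 0.22, and Aqp1, at 0.33, were called in every list with few CpG at the start. The window did not hold the called summit of Epor, 0.87 kb past the start. Nor did it hold that of Alas1 (chr9:106247953, against a start at 106248654). Within 100 bases of these summits the GC content was 66.2% for Epor and 68.7% for Alas1. The GATA motif occurred in the 300-base window in 3 of 12 members called in every list (25.0%). It occurred in 10 of 12 called in none (83.3%), the exceptions being Gata1 and Add2. The matching shares of all protein-coding genes were 8.9% and 26.4%. These motif counts are a description of letters and no test was made of them.

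**Figure D2:**
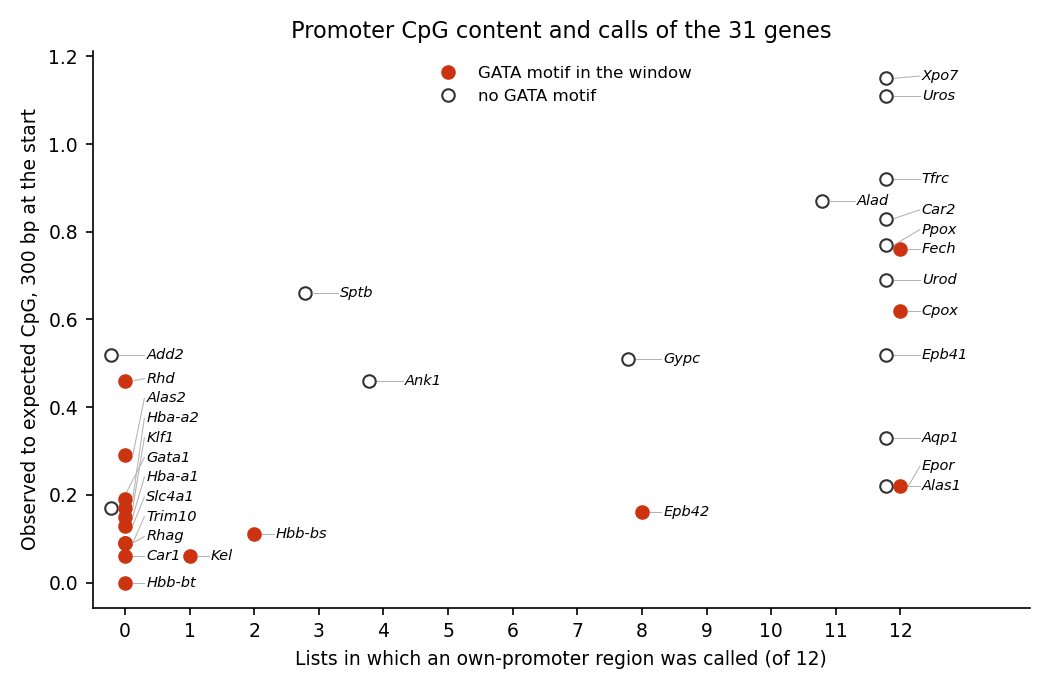
Number of lists in which a promoter region was called (x axis, of 12) against the ratio of observed to expected CpG in 300 bases at the start (y axis) for each of the 31 genes. Filled points hold a GATA motif in that window, and open points without one are drawn slightly left of their value. The genes called in 0 lists lie at 0.52 or lower and 10 of 12 are filled, whereas 8 of the 12 genes called in every list lie at 0.62 or higher.

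Outside promoters, 68 regions were distal to every start and 18 lay at the start of another gene. All 12 lists called 11 of the 68 distal regions (16.2%), 8 of the 18 at other starts (44.4%) and 13 of the 28 at the members' own starts (46.4%). The shares over the catalogue were 12.2% of distal regions and 49.5% of regions at starts. Another 25 of the 114 regions had no call at equal length, as had 18743 of the 71006 catalogue regions. The 11 regular distal regions belonged to Klf1, Hbb-bt, Gypc, Sptb, Epb41, Rhag, Alas1, Urod and Cpox. The distal region with the highest level was that of Rhag, 4.36 kb upstream, with a median percentile of 98.3. It was followed by an intron of Gypc, 7.15 kb from its nearest start, with 95.5, and by an intron of Cpox, 16.09 kb from its start, with 92.0.

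A GATA motif within 100 bases of the highest summit occurred in 7 of these 11 distal regions (63.6%), against 1390 of 6445 distal catalogue regions that were also called in 12 lists (21.6%). Over all distal regions of the members the count was 20 of 68 (29.4%), against 9908 of 52638 (18.8%). The CACCC-type letters CCNCNCCC, searched like all motifs on both strands, were found in 1 of the 11 (9.1%, all such distal regions 26.1%) and in 17 of 28 promoter regions of the members (60.7%, all regions at starts 51.2%). CTG followed after 7 or 8 bases by the letters GATA, the composite bound by the TAL1 and GATA1 complex, was present in 2 of the 11, those of Hbb-bt and Epb41. This composite can share its letters with a GATA motif. The AP-1 and NF-E2 core TGANTCA was in 14.7% of the members' distal regions against 12.1% of all, the ETS core AGGAAG in 44.1% against 44.8%, and the RUNX core TGTGGT in 23.5% against 27.3%. The largest of these differences was that of GATA, and none was tested.

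Among the transcription factors, Gata1 had 1 region (chrX:7971131-7971879), which was chosen after its values were seen. This region lay inside the annotated gene body, in an intron, and 3.72 kb upstream of the only start used for Gata1. It was called in Young WT 3 at percentile 62.8, Young Mlkl-/- 3 at 66.2 and Aged WT 2 at 73.2, and in no other list. Lists of unequal length called it in 3 young and 6 aged libraries, with more calls in the longer lists. The age difference was −0.12 ± 0.27 (SE, limma adjusted p = 0.83). With list length as a covariate it was 0.40, the opposite sign. With the presence of Y chromosome summits as a covariate it was −0.48 (limma adjusted p = 0.414).

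Klf1 had a region over its coding sequence, 1.41 kb from the start (chr8:84902775-84903863). Its percentiles were 79.0, 89.2 and 84.7 in Young WT and 93.2, 91.9 and 83.9 in Aged WT, and 78.3, 74.2 and 92.2 in Young Mlkl-/- and 84.9, 84.1 and 80.3 in Aged Mlkl-/-. All groups overlapped, and the age difference of 0.14 ± 0.15 did not pass the threshold (limma adjusted p = 0.648). The intron region of Epor, 0.87 kb from the start (chr9:21962249-21962953), stood at 96.3, 85.2 and 87.8 in Young WT and 84.2, 86.3 and 93.4 in Aged WT, and 87.7, 93.8 and 79.5 in Young Mlkl-/- and 92.2, 84.9 and 92.1 in Aged Mlkl-/-. The groups again overlapped, with an age difference of −0.01 ± 0.16 (limma adjusted p = 0.987). A second promoter region of Epor, 0.26 kb upstream, was called in Young WT 3 alone, at 65.4.

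Both adult β-globin genes lacked a regular promoter call, but a region 4.88 kb past the start of Hbb-bt, on the downstream side (chr7:103808858-103809385), was called in every list. It stood at 80.7, 89.1 and 91.5 in Young WT and 91.0, 83.2 and 92.3 in Aged WT, and 87.7, 82.6 and 81.1 in Young Mlkl-/- and 91.2, 90.2 and 87.8 in Aged Mlkl-/-. Within Mlkl-/- the aged values lay above the young ones by a narrow margin (lowest aged 87.8, highest young 87.7), while the WT values overlapped. The share of all tested regions whose ages separate within a genotype was not counted. The age difference over both genotypes was 0.18 ± 0.13 (limma adjusted p = 0.447). At the α-globin genes the region at the start of Hbq1b, within 10 kb of both Hba-a1 and Hba-a2 (chr11:32286563-32287344), was called in 6 lists, 4 of them young, with an age difference of −0.34 ± 0.29 (limma adjusted p = 0.541). In the list of embryonic globin genes, which includes Nprl3, the host of distal α-globin enhancers, 8 of 13 regions could be tested and 0 passed the age threshold.

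The intron of Epb41 whose central bases are printed above (chr4:132040167-132040704) and the intron of Cpox (chr16:58686115-58686642) were examples of regular distal regions, chosen after their values were seen. The Epb41 intron stood at 90.2, 84.9 and 85.7 in Young WT and 88.4, 86.4 and 85.4 in Aged WT, and 86.3, 93.7 and 88.6 in Young Mlkl-/- and 89.1, 93.8 and 89.4 in Aged Mlkl-/-. The ages overlapped in both genotypes, with an age difference of 0.02 ± 0.12 (limma adjusted p = 0.934). Aged Mlkl-/- lay above Aged WT by a narrow margin (lowest 89.1 against highest 88.4). Over the members' distal regions the lowest adjusted p for genotype at 18 months was 0.871 (limma). How many regions of the catalogue separate in this way was not counted. The Cpox intron stood at 89.1, 98.0 and 92.3 in Young WT and 79.0, 83.0 and 92.9 in Aged WT, and 94.6, 98.5 and 88.9 in Young Mlkl-/- and 87.1, 94.6 and 91.8 in Aged Mlkl-/-. Its lowest values were those of Aged WT, but the groups overlapped and the age difference of −0.39 ± 0.18 did not pass the threshold (limma adjusted p = 0.199). The Gypc intron at 7.15 kb stood between 93.2 and 98.3 in all 12 libraries, and its age difference was 0.02 ± 0.13 (limma adjusted p = 0.955).

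The comparison by age asked whether any of these regions changed its rank between 3 and 18 months. Of the 66 member regions called in at least 3 lists, 0 passed an adjusted p under 0.01 over both genotypes, where 2.72% of all 37886 tested regions did (limma, Benjamini-Hochberg). At an unadjusted p under 0.05 the count was 11 of 66 (16.7%), against 22.1% of all. The regions that had to be left out, 48 of 114, were called in 2 lists or fewer. This filter used the same calls as the contrasts, so a region could enter through the lists of a single age. The median difference of the 66 was −0.02 against −0.01 over all tested regions, and 30 of 66 differences were positive. By class, the median was −0.10 for the members' 21 tested promoter regions (all regions at starts −0.04) and −0.01 for their 33 tested distal regions (all distal 0.03).

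**Figure D3:**
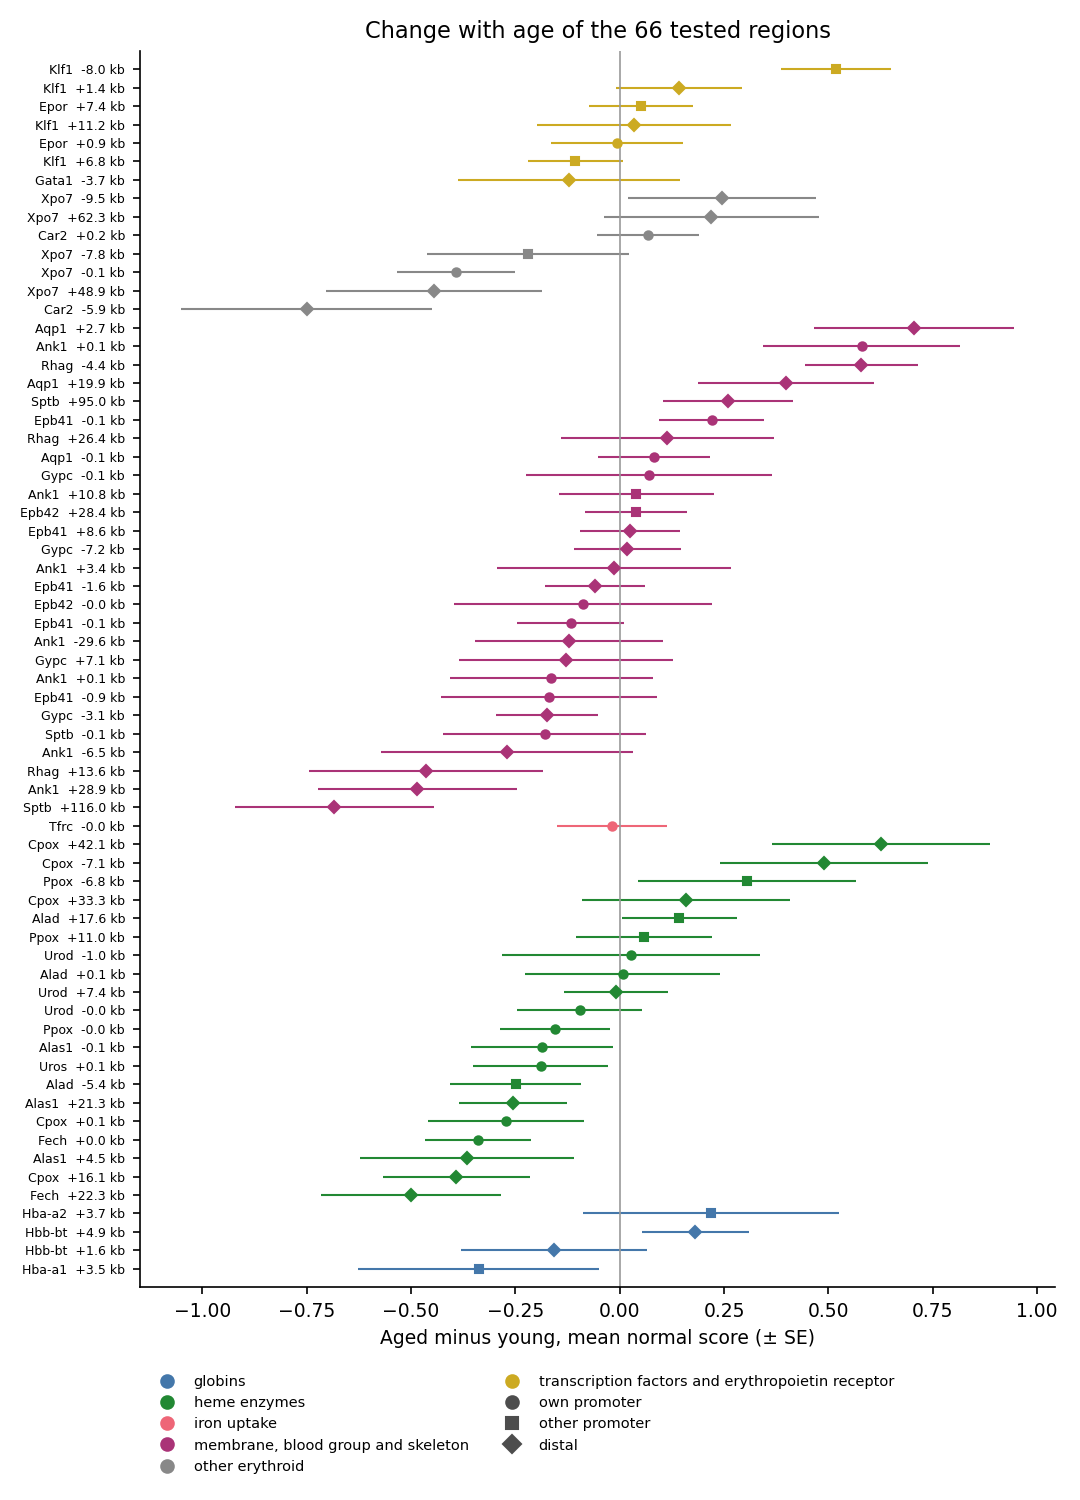
Difference between aged and young libraries in mean normal score (x axis, points with bars of ± 1 SE from limma) for the 66 tested regions, labelled by gene and distance to its nearest start in kb. Colours give the role of the gene and shapes the class of the region. The values run from −0.75 (Car2) to 0.70 (Aqp1). Of the 20 heme enzyme regions 8 are positive, with a median of −0.13. Positive values made up 5986 of 13946 tested catalogue regions at starts and 18582 of all 37886. Regions with missing calls include the step from no call to a called rank.

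Described by role, the 20 tested regions of heme enzymes had a median age difference of −0.13, the 27 of membrane genes −0.01, the 7 of Gata1, Klf1 and Epor 0.04, the 4 of the globin genes 0.01, the 1 of Tfrc −0.02 and the 7 of Car2 and Xpo7 −0.22. None of these groups held a region past the threshold. At an adjusted p under 0.05, 2 of 66 regions passed (3.03%), against 7.75% of all, and both had higher values in aged HSCs. They were chosen for description after their values were seen, and belonged to Rhag and Klf1.

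The Rhag region lies 4.36 kb upstream of the gene for the Rh-associated glycoprotein, a partner of the Rh antigens (chr17:40806504-40807057), and its central bases stand among the sequences above. Its percentiles were 96.1, 96.8 and 95.9 in Young WT and 98.3, 95.5 and 94.1 in Young Mlkl-/-. They were 98.8, 98.5 and 99.0 in Aged WT and 98.4, 99.8 and 99.4 in Aged Mlkl-/-. All 6 aged values lay above all 6 young values. Ages without overlap, in either direction, were found for 1 of 66 member regions (1.52%) and for 3.88% of all tested regions. The mean normal score was 1.79 ± 0.19 in young and 2.37 ± 0.26 in aged libraries (SD, n = 6), a difference of 0.58 ± 0.14 (SE, limma adjusted p = 0.0135). Within WT it was 0.47 ± 0.19 (limma adjusted p = 0.258) and within Mlkl-/- 0.69 ± 0.19 (limma adjusted p = 0.0722). List length moved with age, and with length as a covariate the difference was 0.61 (limma adjusted p = 0.092). With the presence of Y chromosome summits as a covariate it was 0.66 (limma adjusted p = 0.038). The promoter of Rhag had no call, and the other 5 regions of the gene, all in introns, were called in 9 lists or fewer.

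The Klf1 region lies 8.03 kb upstream of Klf1 but 22 bases from the start of Gcdh, a mitochondrial dehydrogenase gene, so it cannot be assigned to Klf1 by position (chr8:84893616-84894145). It stood at 96.3, 94.4 and 96.7 in Young WT and 96.1, 98.1 and 97.8 in Aged WT, and 94.9, 97.2 and 88.3 in Young Mlkl-/- and 98.5, 99.3 and 99.5 in Aged Mlkl-/-. Aged WT overlapped the young groups and Aged Mlkl-/- lay above them, and how many tested regions separate in this way was not counted. The difference over both genotypes was 0.52 ± 0.13 (limma adjusted p = 0.0218), and 0.36 with list length as a covariate (limma adjusted p = 0.307). Within Mlkl-/- it was 0.83 ± 0.19 (limma adjusted p = 0.0357), the 1 of 66 member regions (1.52%) at an adjusted p under 0.05 in that contrast, against 1.48% of all. Within WT it was 0.21 (limma adjusted p = 0.694), and the age changes of the genotypes were not shown to differ (0.62 ± 0.27, limma adjusted p = 0.965). With percentiles in place of normal scores, the age difference over both genotypes was 3.6 points and did not pass 0.05 (limma adjusted p = 0.0983).

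**Figure D4:**
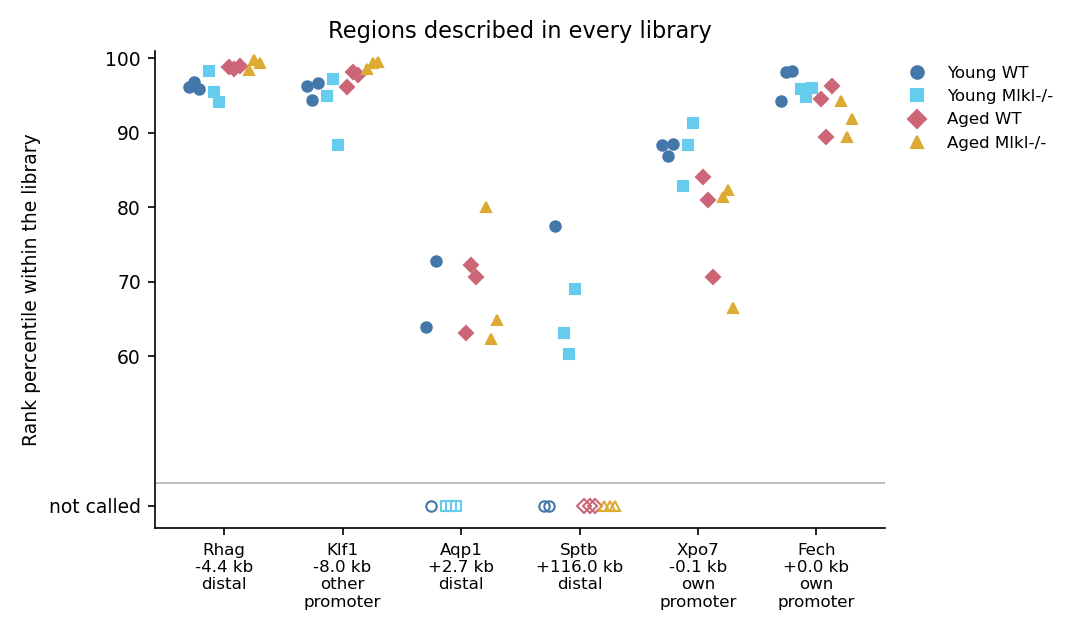
Rank percentile (y axis, percent of catalogue regions ranked lower in the library) of 6 regions in each of the 12 libraries, with open symbols for libraries without a call. Aged symbols of the Rhag region lie above all young ones, between 98.4 and 99.8 against 94.1 and 98.3, whereas the pooled ages overlap at Xpo7 and Fech.

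Within each genotype, 0 of 66 regions passed an adjusted p under 0.01, where 0.201% of all did in WT and 0.15% in Mlkl-/- (limma). At an unadjusted p under 0.05 there were 3 of 66 in WT (4.55%, all regions 14.6%) and 6 of 66 in Mlkl-/- (9.09%, all regions 14.4%). A region called in all 3 lists of one age and in none of the other was counted as all or none. In WT this held for 0 of 114 member regions, against 2.26% of the catalogue, and in Mlkl-/- for 2 of 114 (1.75%), against 2.19%. In lists of unequal length the counts were 2 in WT, at Add2 and Ank1 and both called in aged lists, and 0 in Mlkl-/-. Over the 71006 catalogue regions these lists gave 2562 called in aged only and 372 in young only in WT. In Mlkl-/- the catalogue counts were 1887 and 228.

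The member regions that were all or none in Mlkl-/- at equal length were introns of Aqp1 and Sptb. The Aqp1 intron, 2.73 kb from the start (chr6:55338872-55339429), was called in Young WT 1 at percentile 63.9 and Young WT 3 at 72.8, and in no Young Mlkl-/- list. Its aged values were 63.1, 72.3 and 70.7 in WT and 80.1, 62.3 and 64.9 in Mlkl-/-. Every aged list called it, and 2 of 6 young lists did. The age difference was 0.70 ± 0.24 over both genotypes (limma adjusted p = 0.0817) and 1.06 ± 0.34 within Mlkl-/- (limma adjusted p = 0.114). The Sptb intron, 115.95 kb past the start (chr12:76593714-76594327) and chosen after its values were seen, was called in Young WT 3 at 77.5 and in Young Mlkl-/- at 63.2, 60.3 and 69.0. No aged list called it at equal length, so it entered the comparison through its young calls alone. Its difference was −0.68 ± 0.24 (limma adjusted p = 0.0892), and unequal lists called it in 6 young and 2 aged libraries, with a difference of −0.98 (limma adjusted p = 0.0131). With list length as a covariate it was −0.43 (limma adjusted p = 0.541).

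Other members with the largest differences of their role group were also short of the threshold. The Ank1 promoter region (chr8:23057916-23058693) was called in no young list, in Aged WT 2 at 74.0 and Aged WT 3 at 57.6, and in Aged Mlkl-/- 1 at 58.2 and Aged Mlkl-/- 3 at 61.0. It entered the comparison through its aged calls alone, so the filter and the difference draw on the same calls. Its difference was 0.58 ± 0.24 (limma adjusted p = 0.147), but lists of unequal length called it in 3 young and 5 aged libraries. A region 5.87 kb upstream of Car2 (chr3:14880282-14880829) was called in Young WT 2 at 74.4, Young WT 3 at 84.0, Young Mlkl-/- 1 at 81.2, Young Mlkl-/- 2 at 69.1 and Aged WT 3 at 58.9. The calls were mostly young, with a difference of −0.75 ± 0.30 (limma adjusted p = 0.141), and at unequal length 4 young and 5 aged lists called it, with a difference of −0.38 (limma adjusted p = 0.461). For both regions the split of calls between the ages depended on list length.

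The promoter of Xpo7 (chr14:70766219-70767123) stood at 88.4, 86.9 and 88.5 in Young WT and 84.1, 81.0 and 70.6 in Aged WT, and 82.8, 88.4 and 91.3 in Young Mlkl-/- and 81.4, 82.3 and 66.5 in Aged Mlkl-/-. Young values were mostly higher, with 1 young library among the aged, and the difference was −0.39 ± 0.14 (limma adjusted p = 0.0993), or −0.23 with list length as a covariate (limma adjusted p = 0.586). The promoter of Fech (chr18:64488482-64489440) stood at 94.3, 98.1 and 98.3 in Young WT and 94.5, 89.4 and 96.3 in Aged WT, and 95.9, 94.8 and 96.0 in Young Mlkl-/- and 94.2, 89.4 and 91.9 in Aged Mlkl-/-. The ages overlapped, and the difference was −0.34 ± 0.13 (limma adjusted p = 0.113). An intron of Cpox, 42.12 kb from its start (chr16:58712078-58712721), was called in Young Mlkl-/- 2 at 61.1, Aged WT 2 at 76.2 and in Aged Mlkl-/- at 74.3, 65.6 and 75.6. Of its 5 calls, 4 were aged, with a difference of 0.63 ± 0.26 (limma adjusted p = 0.16). The promoter of Tfrc (chr16:32608643-32609675) stood at 93.2, 86.1 and 92.8 in Young WT and 91.1, 86.1 and 88.3 in Aged WT, and 81.1, 93.0 and 92.9 in Young Mlkl-/- and 90.6, 94.0 and 89.6 in Aged Mlkl-/-. Its age difference of −0.02 ± 0.13 (limma adjusted p = 0.954) was smaller than its SE.

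The comparison by genotype asked whether loss of Mlkl went with a change at these genes. In the contrasts of genotype at either age, over both ages and in the interaction of age and genotype, 0 of 66 regions passed an adjusted p under 0.01, as did 0.0% of all 37886 regions in each (limma). At an unadjusted p under 0.05 there were 3 of 66 member regions at 3 months (4.55%, all 5.37%) and 2 of 66 at 18 months (3.03%, all 5.1%). Over both ages there was 1 of 66 (1.52%, all 6.22%), and in the interaction 3 of 66 (4.55%, all 4.8%). All-or-none regions numbered 0 of 114 at 3 months and 0 of 114 at 18 months, against 0.553% and 0.59% of the catalogue. At unequal length the count at 18 months was 1, a region 4.93 kb upstream of Aqp1 that the Aged Mlkl-/- lists lacked. In the catalogue of 71006 regions, 176 were lacking in this way and 312 were called in Aged Mlkl-/- only. The median genotype difference of the 66 regions was 0.02 over both ages, and by age it was 0.01 (young) and −0.02 (aged). For the Rhag region the genotype difference over both ages was 0.12 ± 0.14 (limma adjusted p = 0.915). For the intron of Cpox at 42.12 kb it was 0.50 ± 0.26 (limma adjusted p = 0.764), with 4 of its 5 calls in Mlkl-/- lists, and in lists of unequal length it was 0.20 (limma adjusted p = 0.937).

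The number of member regions called per library at equal list length was 54.3 ± 2.52 in Young WT and 51.3 ± 2.31 in Aged WT, and 55.3 ± 4.04 in Young Mlkl-/- and 51.3 ± 4.04 in Aged Mlkl-/- (SD, n = 3). Young lists ranged from 51 to 59 and aged lists from 47 to 55, so that the ages overlapped. In lists of unequal length the order turned round, with 67.5 ± 12.6 in young and 76.0 ± 6.45 in aged libraries (SD, n = 6). As a share of all catalogue regions called in the library, member regions made up 0.187% ± 0.00847 in young and 0.172% ± 0.0124 in aged lists at equal length, and 0.186% ± 0.00551 and 0.171% ± 0.0123 at unequal length (SD, n = 6). The count thus turned with list length and the share did not, and the difference in share was not tested.

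**Figure D5:**
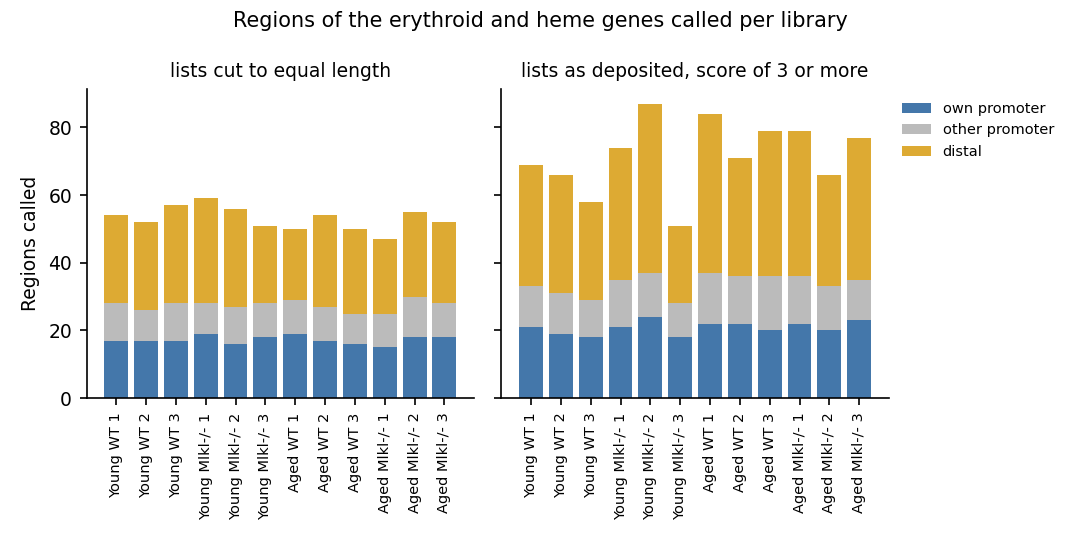
Number of member regions called in each of the 12 libraries (y axis), stacked by class, in lists cut to equal length (left) and in lists as deposited with a score of at least 3 (right). At equal length the bars lie between 47 and 59 in every group, and at unequal length between 51 and 87.

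In other genes of the same pathways 1 of 162 tested regions passed the age threshold, against 2.72% of all tested regions. In 12 further erythroid transcription factor genes 0 of 47 tested regions passed the age threshold, and promoters of 4 (Tal1, Ldb1, Zfpm1 and Zbtb7a) were called in all lists. In 18 genes of heme and iron handling 0 of 50 tested regions passed, and 14 promoters were called in every list, where 42.2% of all protein-coding genes had such a promoter. In 11 further membrane genes 1 of 33 passed, and in 8 genes of red cell enzymes and maturation 0 of 24. The 1 that passed was the promoter of Cd47, the "do not eat me" signal on red cells and stem cells (chr16:49799888-49800733), which fell with age. It stood at 98.3, 98.6 and 98.8 in Young WT and 89.7, 96.7 and 90.7 in Aged WT, and 97.1, 92.2 and 99.3 in Young Mlkl-/- and 89.6, 83.9 and 86.8 in Aged Mlkl-/-. The ages overlapped, and the difference was −0.76 ± 0.15 (limma adjusted p = 0.00499).

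The limits of the rule leave out regions just beyond them. Between 10 and 12 kb from a member lay 11 more regions, among them regions near Gata1, Rhd and Cpox that were called in 12 lists and 1 near Slc4a1 called in 11. Inside the limit, 9 of the member regions lay between 8 and 10 kb from the gene. All deposited scores would have added 3 regions, with a highest score of 2.95, and 3 member regions had a highest score between 3 and 4, the lowest being 3.32.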

How the data were processed

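Open chromatin of sorted HSCs was profiled by ATAC-seq in 12 libraries. The authors mapped single reads to mm10 with Bowtie2 2.5.3 and called peaks in each library with MACS2 2.2.7.1. The submitters' notes also name bedtools 2.31.0 and edgeR 3.30.3. Each deposited file lists peak summits with a score, the −log10 of the q-value. No read counts were given, so depth was unknown, no counting intervals were computed and no count model was used. Unused per-sample columns numbered 0. A deposited score is comparable within its list only.

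Summits with a score of at least 3 (q of 0.001, the study's cutoff) were kept. The 12 lists were reduced to 35714 summits each, and windows of 250 bp on each side of all summits were merged into 71006 regions. Genes and starts were those of the GENCODE mm10 annotation. The 37886 regions that 3 or more lists called entered limma 3.58.1 in R 4.3.3 on normal scores of within-list ranks, in 1 fit of 4 group means with 7 contrasts and a trended empirical Bayes step. P-values were Benjamini-Hochberg adjusted over all tested regions at a threshold of 0.01. The procedure was tested on simulated data with changes planted only in regions called in all 12 lists. Planted changes in regions with missing calls were not tried. Other steps used Python 3.11.15, numpy 2.4.6, scipy 1.17.1 and pandas 2.3.3. Sequences were read from RefSeq's GRCm38.p6.

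The members and gene lists were chosen with earlier results of these data known. Values in every library are given for regions past the threshold, for the promoter and the distal region with the largest age difference in each role group, and for promoter regions of Gata1, Klf1 and Epor, of which Epor alone had any, so that other regions are given for Gata1 and Klf1. Others are marked as chosen after their values were seen, or serve as examples. Pools were labelled as separate samples, and nothing beyond the pooling of different mice describes their independence, so p-values measure the spread between these pools. Replicate numbers did not pair the libraries: over 18 same-numbered pairs the correlation of deviations from the group means was −0.301 to 0.128, and 1 exceeded 0.1. Over 36 other pairs from different groups it was −0.179 to 0.307, and 5 exceeded 0.1. The highest was that of Young Mlkl-/- 2 with Aged WT 3, and its cause was not tested. Alternatives were other score minimums, list lengths, windows, list minimums, flanks and tie seeds, percentiles, separate fits, an adjusted p under 0.05, a replicate block, covariates, 9 libraries sharing a file tag that the labels do not explain, and each library left out. Ahsp was not matched in the annotation by that symbol and was not analysed here.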

Additional observations from a re-analysis of the deposited data

How the results depend on the processing

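The count of member regions past the threshold was 0 in every contrast and remained 0 in 180 of 186 repeats, which says nothing on stability for genotype, where no region of the catalogue passed. For age over both genotypes the count of 0 became 1 in lists of unequal length (Rhag, adjusted p = 0.00831) and 2 at an adjusted p under 0.05, and for age in Mlkl-/- it became 1 at that threshold. Leaving out 1 library gave counts of 0 to 1 for age over both genotypes: Rhag passed without Young Mlkl-/- 1 (adjusted p = 0.00879) or Aged Mlkl-/- 1 (0.00773), and the Klf1 region without Young Mlkl-/- 2 (0.00931). With a replicate block the count was 0 in all 7 contrasts, with adjusted p = 0.0257 for Rhag and 0.0348 for Klf1, and the block changed no call. Member regions called per library, aged minus young, went from −3.5 to 8.5 with unequal lists, while their share of all calls was lower in aged lists in both cases.

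Small differences changed sign, and the cause was not tested. Below, values given with percentiles are in percentile points, and all others are in normal score. By age these were Gata1 (0.322 with unequal lists, 0.401 with list length as covariate), Epor (0.484 with percentiles, 0.293 with Y summits as covariate), Tfrc (0.097 with percentiles, 0.047 with list length, 0.051 in the 9 libraries with the tag) and Klf1 at 1.41 kb (−0.114 with Y summits). By genotype these were Car2 (0.057), Sptb at 115.95 kb (−0.029) and Gata1 (0.037) with unequal lists, and Klf1 at −8.03 kb (−0.284 with percentiles). With list length as a covariate the age difference was −0.383 for Epor and 0.425 for Klf1 at 1.41 kb, and neither passed. Without 1 library the age difference was −0.094 to 0.106 for Epor and −0.117 to 0.032 for Tfrc. The genotype difference was −0.126 to 0.077 for Epor, −0.017 to 0.147 for Tfrc, −0.098 to 0.049 for Xpo7, −0.409 to 0.022 for Car2 and −0.227 to 0.07 for Ank1.

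Ranks hide changes shared by all regions, and without read counts the depth behind a missing call is unknown. Separate fits could not be made for contrasts that use all 4 groups.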
